A study of Mus musculus with 9 samples.

Results

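The genes described here are 39 genes that make, sense or move cholesterol and fatty acids in mouse cells. They were chosen by name from known biology, as rows of the gene table that stand for the sterol-regulatory factors, the enzymes of cholesterol synthesis, the control of sterol transport and uptake, and the enzymes of fatty acid synthesis, desaturation and elongation. The choice was made with earlier results of these data known. All 39 were among the 19044 genes measured, and 37 of them were kept by edgeR's filter on low counts (filterByExpr), which kept 12235 genes in all. Abcg1 and Acacb were not kept.

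RNA was sequenced from 3 mouse squamous cell carcinoma (SCC) lines that differ in focal adhesion kinase (FAK), the product of Ptk2, with 3 replicate libraries each. All of them derive from a chemically induced skin tumour of K14CreER FAK flox/flox mice on the FVB background, whose cells were treated with 4-hydroxytamoxifen in culture to delete FAK. FAK-/- cells lack the kinase. FAK-WT and FAK-kd (kinase-deficient) cells are a FAK-/- clone to which the wild-type or the kinase-deficient form was returned by retrovirus under hygromycin selection, so each group is a line of its own, and the form of FAK and other differences between the lines cannot be told apart. All lines grew in medium with foetal bovine serum, and nothing in the labels gives a sterol or lipid treatment. The comparisons ask which of these genes depend on FAK, and which on its kinase activity.

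Cells make cholesterol from acetyl-CoA through mevalonate, the isoprenoids and squalene, and they make fatty acids from the same acetyl-CoA through malonyl-CoA. Both routes are driven by the SREBP transcription factors, which are made as membrane proteins and held in the endoplasmic reticulum by Insig proteins while sterols are plentiful. When sterols run low, Scap carries the SREBPs to the Golgi, where proteases release the part that enters the nucleus. The product of Srebf2 is known mainly for the cholesterol genes and that of Srebf1 mainly for the fatty acid genes. SREBPs are weak activators alone and are known to act beside NF-Y and Sp1 bound nearby.

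To show what the promoters of these genes share, RefSeq windows (GRCm38.p6) from 250 bases before to 50 bases after each start site were searched on both strands. Of the 39 genes, 31 had an entry. Abcg1, Fads1, Fdft1, Fdps, Scd1, Scd2, Sqle and Stard4 had none. The NF-Y box, CCAAT, was in 24 of the 31 (77.42%), against 41.06% of all 27025 genes with a window. Among the 14 cholesterol synthesis genes with a window it was in 13 (92.86%), and among the 10 fatty acid genes it was in 6. The Sp1 box, GGGCGG, was in 25 of the 31 (80.65%, against 38.2% of all genes), and again in 13 of the 14 cholesterol synthesis genes. The E-box CACGTG was in 7 (22.58%, against 8.093%). The sterol regulatory element core, TCACNCCAC, was in Hmgcs1 and in no other window of the 31, and in 1.436% of all genes. The shares of all genes were not limited to genes expressed in these cells, as almost all of the 39 are, and no share among expressed genes was computed. These are matches of letters and not sites of binding. No motif is contained in another, and a gene with several windows was counted once.

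**Figure D1:**
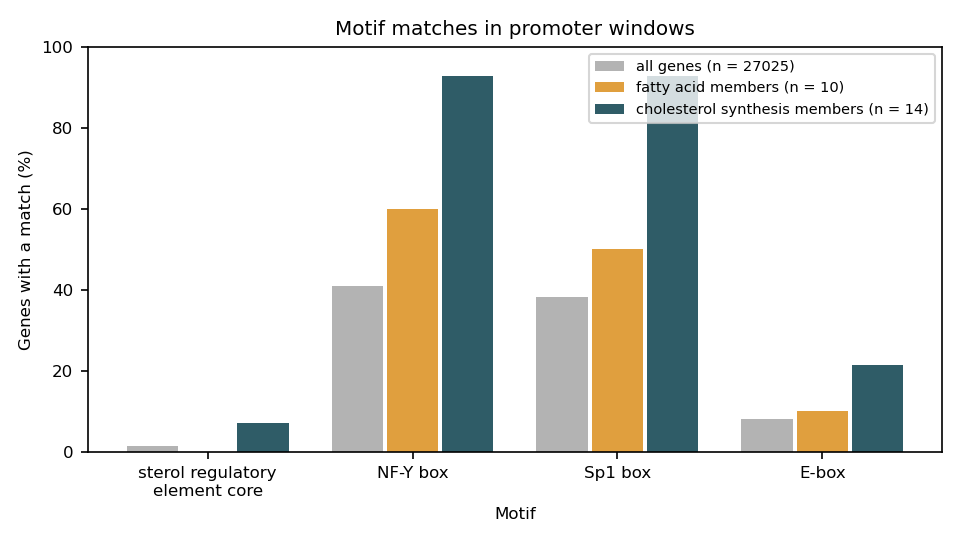
Share of genes (%) whose promoter window holds each of 4 motifs, for all 27025 genes with a window, the 10 fatty acid genes and the 14 cholesterol synthesis genes that have a window. The NF-Y and Sp1 boxes each stood in 92.86% of the cholesterol synthesis genes.

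Stretches that end at the start site, or at the outer edge of the annotated gene where that lies further out, are shown for 6 cholesterol synthesis genes that changed below, for Insig2, which changed the other way, and for Fasn. Capitals mark NF-Y boxes, which read ATTGG where they lie on the other strand, and in Hmgcs1 also the sterol element match TCACCCCAC, 137 bases before the start.
Hmgcs1 (chr13:119690101-119690350, plus strand): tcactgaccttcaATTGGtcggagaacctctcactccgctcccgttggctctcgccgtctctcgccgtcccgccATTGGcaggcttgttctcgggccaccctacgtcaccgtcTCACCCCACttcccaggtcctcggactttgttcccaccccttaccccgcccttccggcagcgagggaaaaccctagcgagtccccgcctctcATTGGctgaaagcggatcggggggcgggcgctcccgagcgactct
Mvk (chr5:114444069-114444268, plus strand): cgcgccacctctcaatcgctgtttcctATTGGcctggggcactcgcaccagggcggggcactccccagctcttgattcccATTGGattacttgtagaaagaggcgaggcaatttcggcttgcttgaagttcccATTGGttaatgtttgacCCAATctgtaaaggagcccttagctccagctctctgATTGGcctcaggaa
Mvd (chr8:122443423-122443522, minus strand): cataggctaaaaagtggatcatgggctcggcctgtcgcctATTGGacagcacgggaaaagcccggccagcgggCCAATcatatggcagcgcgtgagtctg
Lss (chr10:76531505-76531587, plus strand): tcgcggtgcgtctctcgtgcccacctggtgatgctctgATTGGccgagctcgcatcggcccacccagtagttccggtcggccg
Nsdhl (chrX:72918391-72918520, plus strand): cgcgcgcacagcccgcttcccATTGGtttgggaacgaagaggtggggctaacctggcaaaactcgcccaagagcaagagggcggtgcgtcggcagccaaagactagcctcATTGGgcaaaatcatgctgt
Hsd17b7 (chr1:169969242-169969385, minus strand): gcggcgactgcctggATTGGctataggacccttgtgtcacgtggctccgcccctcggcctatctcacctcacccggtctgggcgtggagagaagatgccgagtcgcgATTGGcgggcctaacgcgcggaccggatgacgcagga
Insig2 (chr1:121332590-121332739, minus strand): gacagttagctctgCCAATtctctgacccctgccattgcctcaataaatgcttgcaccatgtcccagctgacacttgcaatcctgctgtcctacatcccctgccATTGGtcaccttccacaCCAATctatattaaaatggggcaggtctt
Fasn (chr11:120824548-120824667, minus strand): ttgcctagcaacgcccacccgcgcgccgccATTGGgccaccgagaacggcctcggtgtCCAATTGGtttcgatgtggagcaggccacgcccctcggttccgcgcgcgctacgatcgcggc
The Mvk stretch held 5 NF-Y boxes, of which 4 on the minus strand began 173, 120, 67 and 14 bases before the start. Insig2 and Fasn held 3 boxes each. Whether the boxes bear on the changes below was not tested.

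The libraries held 25304994 to 37264636 counts, except FAK-WT replicate 1, which held 779755 (2.31% of the median of the other 8). In that library 3 counts are worth 3.85 CPM (counts scaled to a common library size with TMM factors), and the median of the 39 genes was 80 counts. Ptk2 stood at 213 to 216 CPM in FAK-WT, 19.6 to 23.5 in FAK-/- and 155 to 176 in FAK-kd libraries. The keratinocyte markers were nearly absent. Of 7 listed, 5 were measured, and Krt5, Krt14, Krt18 and Cdh1 reached at most 0.24 CPM in any library. The other, Krt8, reached at most 1.38 CPM and was higher in FAK-kd than in FAK-/- cells (log2 fold change 2.13, adjusted p = 0.00548 by edgeR), while the mesenchymal gene Vim stood between 6859 and 8143. The summed level of the 4 mesenchymal markers was 7379 to 7464 CPM in FAK-WT, 6965 to 7766 in FAK-/- and 8046 to 8273 in FAK-kd libraries. Within it Acta2 was at 0 to 1.49 CPM in FAK-WT, 72.2 to 78.7 in FAK-/- and 100.3 to 118 in FAK-kd libraries, and Pdgfra was at 10.1 to 11.7, 26.8 to 33.5 and 18.3 to 28.4 CPM. Both were lower in FAK-WT than in either line, Pdgfra by log2 fold changes of -1.44 (adjusted p = 1.35e-05) and -1.11 (adjusted p = 0.000157). The endothelial marker Cdh5 was higher in FAK-WT than in either line, at 1.24 to 1.97 CPM against at most 0.18. The part of these markers in the results was not tested. Leukocyte, endothelial and adipocyte markers summed to at most 3.33, 1.97 and 0.12 CPM. Of the sebocyte list Mc5r was at or near 0, and Plin2, a lipid droplet coat protein of many cell types, stood at 173 to 235 CPM. In bulk RNA, fewer cells of a kind and less RNA per cell cannot be told apart.

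Counts were compared with edgeR's quasi-likelihood test on all 19044 genes in 1 fit of the 9 libraries, and a gene was called at a Benjamini-Hochberg adjusted p of 0.05 or below. The adjusted p-values below are from that fit, and log2 fold changes are FAK-WT over the other line unless stated. The replicates are given as biological replicates of 1 line each.

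FAK-WT cells held less mRNA for cholesterol synthesis than either of the other lines. Of the 17 enzymes from Acat2 to Dhcr7, 10 were lower in FAK-WT than in the FAK-/- line and 14 were lower than in the FAK-kd line, and 0 were higher in either comparison. Fatty acid genes did not share this pattern. Of 13, 1 was higher in FAK-WT than in the FAK-/- line and 5 were higher than in the FAK-kd line. With all 9 libraries in the fit, 0 were lower in either comparison. Without FAK-kd replicate 1, the higher calls of Fasn, Fads2 and Elovl6 against FAK-kd were lost. Acly, Acss2, Scd1 and Scd2 were then called lower in FAK-WT than in FAK-kd cells. Between the FAK-/- and FAK-kd lines 4 of the 39 genes were called, a count that rested on which libraries entered the fit.

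Over all 39 genes, FAK-WT over FAK-/- gave 3 higher and 13 lower, where 8.01% and 9.96% of all genes tested were higher and lower. Against FAK-kd cells 6 were higher and 17 lower, where the shares of all genes were 7.58% and 10.2%. FAK-kd over FAK-/- gave 4 higher and 0 lower, against shares of 3.97% and 3.88%. As almost all of the 39 genes are expressed, the shares among the 12235 genes kept by the filter are the nearer background. They were 11.6% higher and 15.1% lower, 10.7% and 15.5%, and 6.11% and 5.81% in the same order. The lower calls, 13 of 39 and 17 of 39, stood above that background, and the 3 and 6 higher calls of these comparisons were nearer to it. By edgeR 0 of the 39 passed the study's further limit, a log2 fold change beyond 1 in either direction, which 5.38%, 5.26% and 2.01% of all genes passed. The changes called were thus modest, from 0.25 to 0.76 in size on the log2 scale against FAK-/- cells and from 0.29 to 0.96 against FAK-kd cells. Without FAK-WT replicate 2, 8 of the 39 were lower in FAK-WT over FAK-/-, where 6.15% of all genes were. Without FAK-/- replicate 3, 5 were higher in that comparison, where 10.7% of all genes were. Without FAK-kd replicate 1, 3 were higher in FAK-WT over FAK-kd, where 6.73% of all genes were. The comparisons with FAK-WT share the FAK-WT libraries and are not independent of each other.

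**Figure D2:**
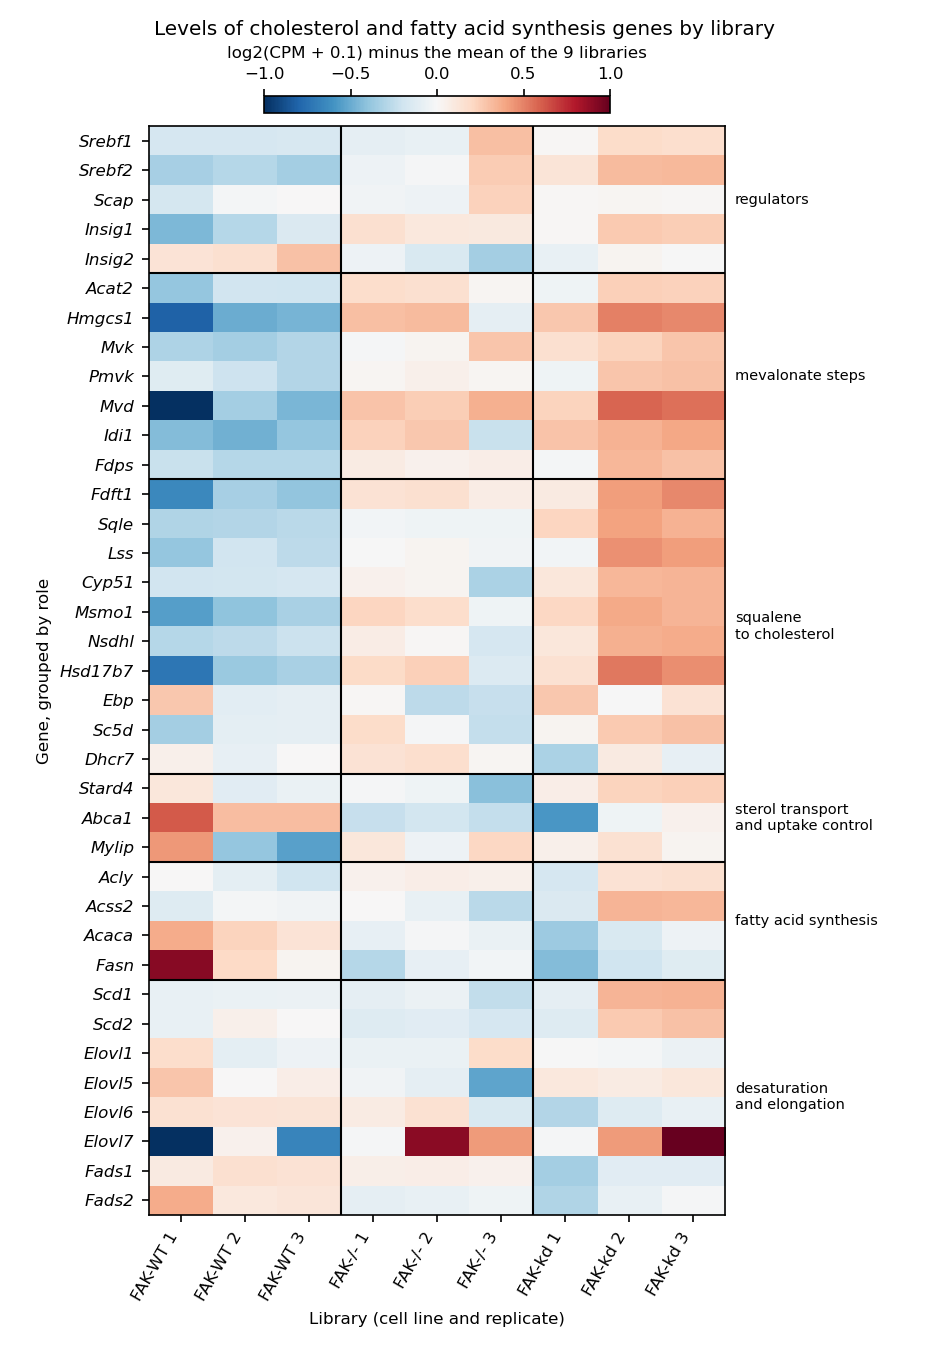
Level of each of the 37 genes kept by the filter in each of the 9 libraries, as log2(CPM + 0.1) minus the gene's mean over the libraries. Rows are grouped by role and columns by cell line, and colours stop at -1 and 1. The mevalonate and squalene rows are blue in the 3 FAK-WT columns down to Hsd17b7 and mostly red in the FAK-kd columns, while Abca1, Acaca and Fasn run the other way. Elovl7 is a gene of under 1 CPM.

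Among the regulators, Srebf2, which encodes the SREBP best known for cholesterol genes, was lower in FAK-WT cells than in both other lines. It stood at 339, 349 and 335 CPM in FAK-WT, 410.0, 422 and 507 CPM in FAK-/- and 465, 530.2 and 534 CPM in FAK-kd. No FAK-WT library reached the lowest library of another line. The log2 fold change was -0.39 ± 0.09 (SE, adjusted p = 0.00485) over FAK-/- and -0.58 ± 0.09 (SE, adjusted p = 0.000176) over FAK-kd.

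Insig1, an SREBP target whose protein retains Scap, was lower as well, at 127, 142 and 157 CPM in FAK-WT, 194, 187 and 186 CPM in FAK-/- and 175, 209 and 206 CPM in FAK-kd. All 3 FAK-WT libraries were below the other 6, with log2 fold changes of -0.38 ± 0.08 (SE, adjusted p = 0.00517) over FAK-/- and -0.44 ± 0.08 (SE, adjusted p = 0.00176) over FAK-kd. Insig2, its close relative, ran the opposite way, at 30.2, 30.8 and 33.7 CPM in FAK-WT, 26.6, 24.8 and 21.8 CPM in FAK-/- and 26.1, 28.1 and 27.4 CPM in FAK-kd. Its FAK-WT libraries were above the other 6, but only the difference from FAK-/- was called (0.39 ± 0.10 SE, adjusted p = 0.0138), and the one from FAK-kd was 0.24 ± 0.10 (SE, adjusted p = 0.137). Without FAK-WT replicate 3 that call was lost, and with any 1 library left out the value lay between 0.32 and 0.47.

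Srebf1 and Scap were not called in any comparison with all 9 libraries in the fit. Srebf1, outside the rule for named genes and chosen after its values were seen, stood at 193, 192 and 193 CPM in FAK-WT, 202, 205 and 266 CPM in FAK-/- and 218, 245 and 242 CPM in FAK-kd. Its 3 FAK-WT libraries were nearly equal and below the other 6, and the log2 fold change over FAK-kd was -0.29 ± 0.10 (SE, adjusted p = 0.0546). Without FAK-/- replicate 1 or FAK-/- replicate 3, Srebf1 was called lower in FAK-WT than in FAK-kd cells. That value lay between -0.33 and -0.25 with any 1 library left out. For FAK-kd over FAK-/- it was called without FAK-/- replicate 3.

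The mevalonate steps gave the most even pattern of any role group. In all 7 genes every FAK-WT library was below every FAK-/- and every FAK-kd library. Among genes kept by the filter, 24.1% and 27.6% had such a gap in the same direction. In FAK-WT against FAK-/- cells 6 of 7 were called lower, with a median log2 fold change of -0.42, and in FAK-WT against FAK-kd cells 7 of 7, with a median of -0.54. Over all genes kept, the medians were -0.02 in both.

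Hmgcs1, the enzyme that joins acetyl-CoA and acetoacetyl-CoA ahead of mevalonate, had the largest change against FAK-kd cells among the genes called. It stood at 139.7, 173 and 177 CPM in FAK-WT, 302, 304 and 229.6 CPM in FAK-/- and 294, 347 and 341 CPM in FAK-kd. The FAK-WT mean was 0.603 of the FAK-/- level and 0.513 of the FAK-kd level in the fit, with log2 fold changes of -0.73 ± 0.11 (SE, adjusted p = 0.000253) and -0.96 ± 0.11 (SE, adjusted p = 1.75e-05). FAK-/- replicate 3 lay between the FAK-WT libraries and the other FAK-/- libraries. Hmgcs1 is also the gene whose promoter stretch above carries the sterol element match, and a link between that match and its level was not tested.

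Mvd, which decarboxylates mevalonate diphosphate, stood at 11.3, 24.6 and 22.7 CPM in FAK-WT, 38.0, 36.9 and 40.0 CPM in FAK-/- and 36.4, 46.8 and 45.7 CPM in FAK-kd. Its log2 fold change was -0.76 ± 0.14 (SE, adjusted p = 0.0012) over FAK-/- and -0.93 ± 0.14 (SE, adjusted p = 0.000212) over FAK-kd, the largest in size among the genes called in the former. The low FAK-WT value rests on 9 counts in replicate 1. Without that library the log2 fold changes were -0.69 and -0.86, and both calls remained.

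Idi1 makes dimethylallyl diphosphate from isopentenyl diphosphate, and it stood at 172, 166 and 178 CPM in FAK-WT, 273, 280.3 and 199 CPM in FAK-/- and 283, 296 and 304 CPM in FAK-kd. FAK-WT cells were lower, with log2 fold changes of -0.54 ± 0.11 (SE, adjusted p = 0.00203) and -0.77 ± 0.11 (SE, adjusted p = 9.27e-05). FAK-/- replicate 3 was again the lowest of its group. Fdps, which builds farnesyl diphosphate, had the highest level per kilobase of transcript of the 39 genes at 378 CPM per kilobase (mean of 9 libraries). It stood at 442, 423 and 424 CPM in FAK-WT, 547, 530.4 and 541 CPM in FAK-/- and 509, 649 and 633 CPM in FAK-kd, with log2 fold changes of -0.33 ± 0.08 (SE, adjusted p = 0.0109) and -0.48 ± 0.08 (SE, adjusted p = 0.000708). The call against FAK-/- was lost without FAK-WT replicate 2 or 3, although the value stayed between -0.35 and -0.32 with any 1 library left out.

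The remaining mevalonate genes are Acat2, Mvk and Pmvk. Acat2, the acetoacetyl-CoA thiolase of the cytosol, stood at 101, 115 and 114 CPM in FAK-WT, 148, 147 and 133 CPM in FAK-/- and 127, 155 and 154 CPM in FAK-kd. Its log2 fold changes were -0.35 ± 0.09 (SE, adjusted p = 0.0118) over FAK-/- and -0.37 ± 0.09 (SE, adjusted p = 0.00685) over FAK-kd. The call against FAK-kd was lost without FAK-kd replicate 2 or 3, with values between -0.45 and -0.32 when any 1 library was left out.

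Mvk, mevalonate kinase, was between 43.2 and 44.6 CPM in FAK-WT, between 54.1 and 66.1 in FAK-/- and between 61.2 and 66.2 in FAK-kd libraries. It was lower in FAK-WT cells against either line, with log2 fold changes of -0.42 ± 0.09 (SE, adjusted p = 0.00475) and -0.54 ± 0.09 (SE, adjusted p = 0.000627). The former was no longer called without FAK-WT replicate 2, and lay between -0.46 and -0.32 with any 1 library left out. The next kinase, Pmvk, stood at 40.3, 37.8 and 35.6 CPM in FAK-WT, 44.3, 45.2 and 44.3 CPM in FAK-/- and 42.5, 53.0 and 53.7 CPM in FAK-kd, and was called against FAK-kd (-0.42 ± 0.10 SE, adjusted p = 0.00981) but not against FAK-/- (-0.26 ± 0.10 SE, adjusted p = 0.1). Its call depended on FAK-WT replicates 2 and 3 and on FAK-kd replicates 2 and 3, with values between -0.51 and -0.35 with any 1 library left out.

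**Figure D3:**
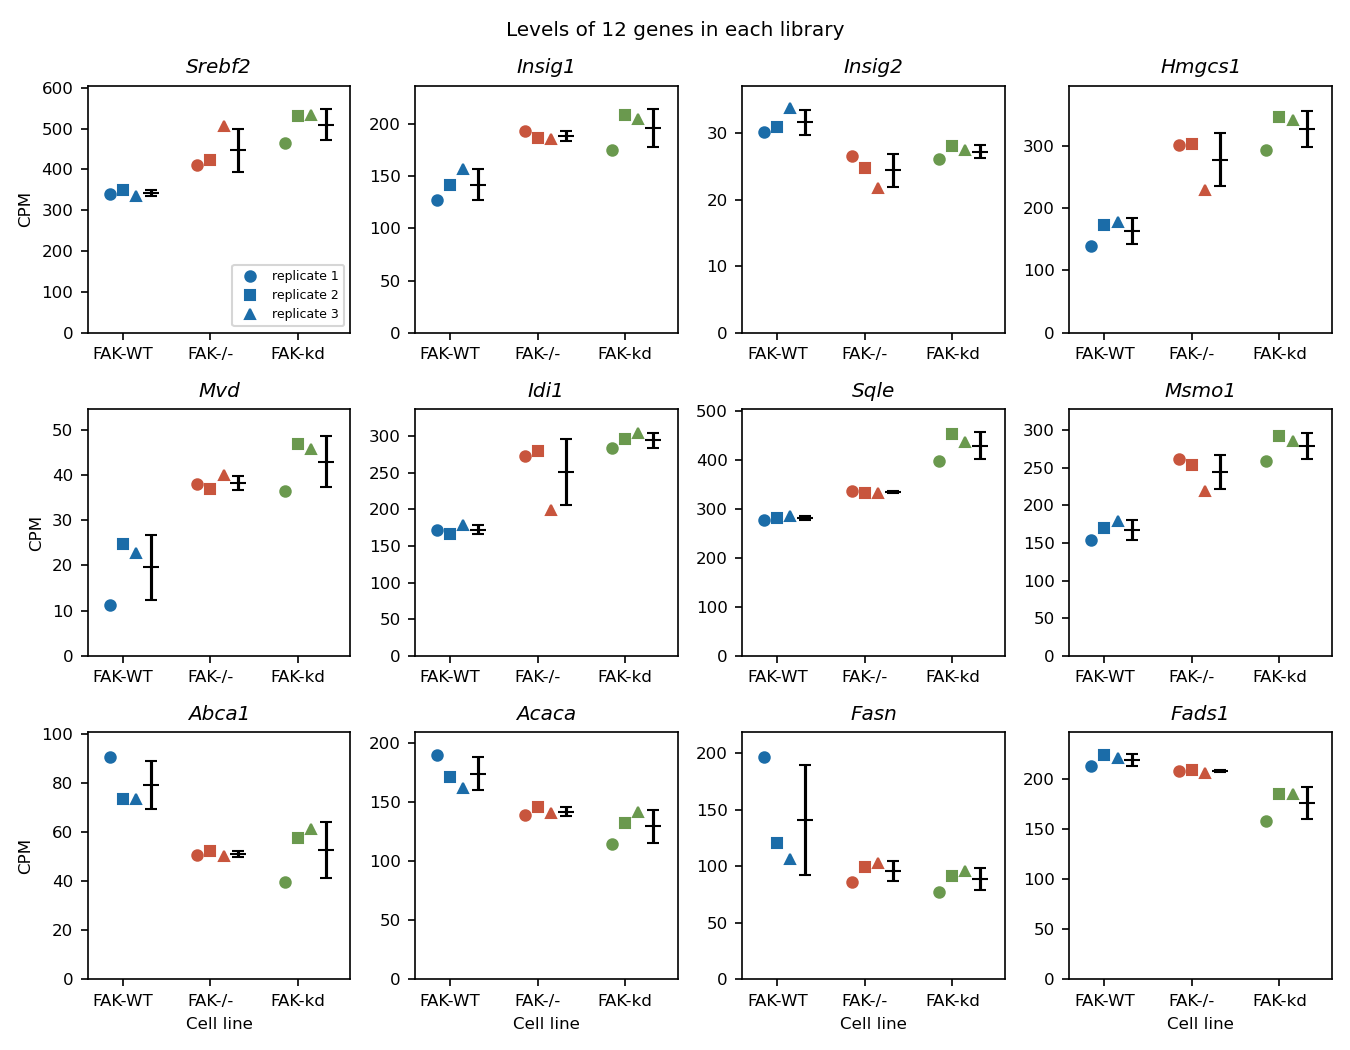
CPM of 12 genes in each library, with the axis from 0. Points are replicates 1, 2 and 3, and the black bar beside each group is the mean with its SD (n = 3). FAK-WT points lie below both other lines for Srebf2, Insig1, Hmgcs1, Mvd, Idi1, Sqle and Msmo1 and above them for Insig2, Abca1, Acaca and Fasn. In Fads1 the FAK-kd points are the lowest.

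From squalene to cholesterol, 4 of 10 genes were lower in FAK-WT than in the FAK-/- line and 7 of 10 were lower than in the FAK-kd line. The medians of the log2 fold change were -0.24 and -0.54. The genes called lie in the first part of the route, from squalene synthase to the sterol demethylation enzymes. The late enzymes Ebp, Sc5d and Dhcr7 were called in no comparison, with log2 fold changes between -0.14 and 0.09 over FAK-/- and between -0.32 and 0.07 over FAK-kd. The value of -0.32 was that of Sc5d (adjusted p = 0.0594 by edgeR), whose FAK-WT libraries were all below the FAK-kd libraries. Sc5d was called lower than in FAK-kd without FAK-/- replicate 1, FAK-/- replicate 3 or FAK-kd replicate 1.

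Squalene synthase, Fdft1, stood at 52.9, 65.5 and 62.9 CPM in FAK-WT, 91.6, 92.2 and 87.2 CPM in FAK-/- and 88.0, 110.2 and 115 CPM in FAK-kd. Its log2 fold changes were -0.52 ± 0.10 (SE, adjusted p = 0.00149) and -0.73 ± 0.10 (SE, adjusted p = 7.58e-05), with no overlap between FAK-WT and either line. Sqle, squalene epoxidase and a rate-limiting step, differed between all 3 lines. It stood at 278, 280.3 and 285 CPM in FAK-WT, 337, 333 and 333 CPM in FAK-/- and 398, 452 and 437 CPM in FAK-kd. The replicates spread little, and the groups did not overlap, in the order FAK-WT, FAK-/-, FAK-kd from low to high. The steps were -0.25 ± 0.07 (SE, adjusted p = 0.0162) for FAK-WT over FAK-/-, -0.61 ± 0.07 (SE, adjusted p = 9.12e-06) for FAK-WT over FAK-kd and 0.36 ± 0.06 (SE, adjusted p = 0.00232) for FAK-kd over FAK-/-. The first call was lost without FAK-WT replicate 2 or 3 or FAK-/- replicate 1, with values between -0.26 and -0.23 for any 1 library left out.

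Lss closes squalene epoxide into lanosterol. It stood at 135, 154 and 146 CPM in FAK-WT, 176, 179 and 171 CPM in FAK-/- and 173, 241 and 235 CPM in FAK-kd. All FAK-WT libraries were below the others, and the difference was called against FAK-kd (-0.56 ± 0.11 SE, adjusted p = 0.00154) and not against FAK-/- (-0.25 ± 0.11 SE, adjusted p = 0.127). Cyp51, the lanosterol demethylase, followed, at 205, 207 and 209 CPM in FAK-WT, 242, 239 and 188 CPM in FAK-/- and 253, 295 and 297 CPM in FAK-kd. FAK-/- replicate 3 was below every FAK-WT library there. Cyp51 was lower in FAK-WT than in FAK-kd cells (-0.44 ± 0.10 SE, adjusted p = 0.00416), and its value over FAK-/- was -0.11 ± 0.10 (SE, adjusted p = 0.505).

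The methyl groups of the sterol are removed by Msmo1, Nsdhl and Hsd17b7. Msmo1 stood at 154, 169.7 and 179.5 CPM in FAK-WT, 261, 254 and 219 CPM in FAK-/- and 259, 292 and 285 CPM in FAK-kd. FAK-WT cells were lower, at log2 fold changes of -0.52 ± 0.08 (SE, adjusted p = 0.000408) and -0.71 ± 0.08 (SE, adjusted p = 2.2e-05). Hsd17b7 stood at 22.7, 29.0 and 30.0 CPM in FAK-WT, 42.8, 44.2 and 34.2 CPM in FAK-/- and 41.7, 54.1 and 51.7 CPM in FAK-kd, with values of -0.49 ± 0.13 (SE, adjusted p = 0.0157) and -0.77 ± 0.13 (SE, adjusted p = 0.000539). FAK-WT did not overlap with either line in these genes. The call of Hsd17b7 against FAK-/- was lost without FAK-WT replicate 2 or FAK-/- replicate 1 or 2, with values between -0.58 and -0.41 for any 1 library left out.

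Nsdhl stood at 86.9, 88.1 and 91.1 CPM in FAK-WT, 111, 107 and 94.4 CPM in FAK-/- and 114, 135 and 137 CPM in FAK-kd. It was lower in FAK-WT than in FAK-kd cells (-0.53 ± 0.09 SE, adjusted p = 0.00045), and its log2 fold change over FAK-/- was -0.22 ± 0.09 (SE, adjusted p = 0.0968). As in Sqle, all FAK-/- libraries were between the FAK-WT and the FAK-kd libraries.

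**Figure D4:**
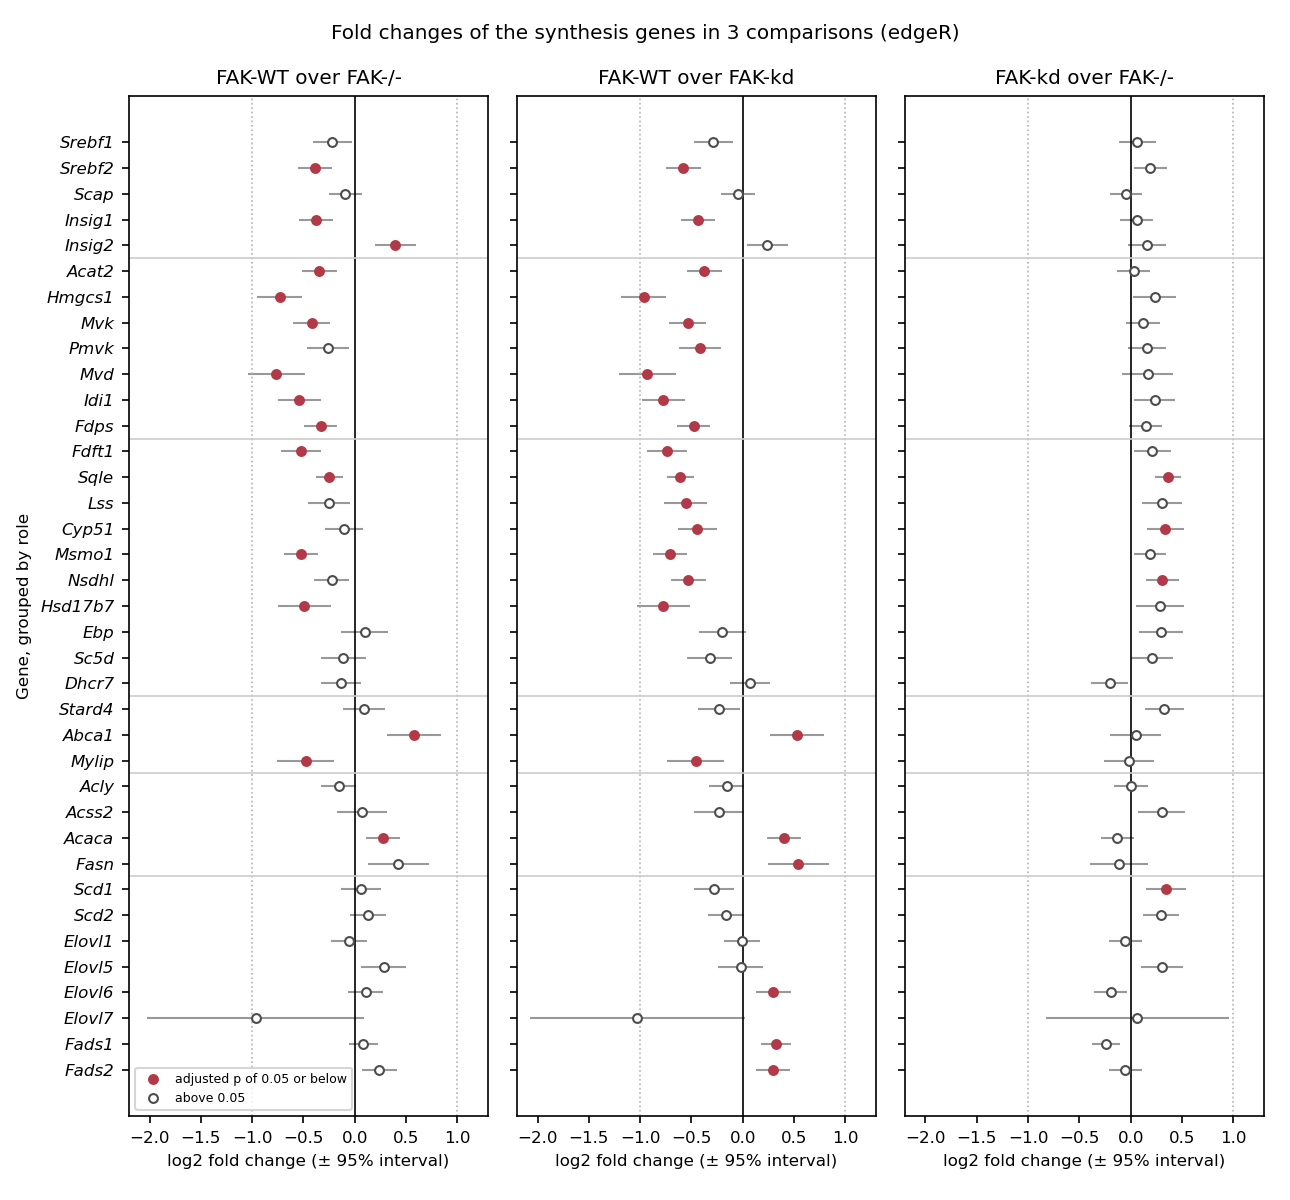
Log2 fold change of the 37 genes kept by the filter in each comparison, with its 95% interval from the SE. Filled points have an adjusted p of 0.05 or below, dotted lines mark a log2 fold change of 1 in size, and rules separate the role groups. In the first 2 panels 10 and 14 of the 17 cholesterol synthesis rows are filled, all left of 0. Srebf2, Insig1 and Mylip are filled on that side as well. Right of 0 the filled points are Insig2, Abca1 and Acaca in the first panel. In the second they are Abca1, Acaca, Fasn, Elovl6, Fads1 and Fads2. In the third panel 4 points are filled, all right of 0.

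Summed over the 17 cholesterol synthesis genes, the libraries held 2032, 2120 and 2147 CPM in FAK-WT, 2835, 2803 and 2519 CPM in FAK-/- and 2827, 3361 and 3320 CPM in FAK-kd. Each FAK-WT library was below the lowest of the other lines, and the FAK-/- and FAK-kd ranges overlapped through FAK-kd replicate 1. FAK-kd replicate 1 was the lowest of its group in 16 of the 17 genes and in 32 of the 37 genes kept, against 40.6% of all genes kept by the filter. FAK-/- replicate 3 was the lowest in 13 of the 17 and 23 of the 37, against 42.2%. Without FAK-/- replicate 3, Pmvk (-0.28), Cyp51 (-0.21) and Nsdhl (-0.29) were also called lower in FAK-WT than in FAK-/-, and without FAK-kd replicate 1, Lss (-0.25) was. Without these 2 libraries and the shallow FAK-WT replicate 1, an alternative chosen after the values were seen that leaves 2 libraries against 2, the calls among the 39 were 6 higher and 20 lower for FAK-WT over FAK-/- and 7 higher and 25 lower for FAK-WT over FAK-kd. For FAK-kd over FAK-/- they were 24 higher and 3 lower. The counts over all genes rose in this fit as well, to 16% higher and 17.3% lower, 17% and 19.2%, and 12.4% and 10.9% of the 19044 genes in the same order.

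**Figure D5:**
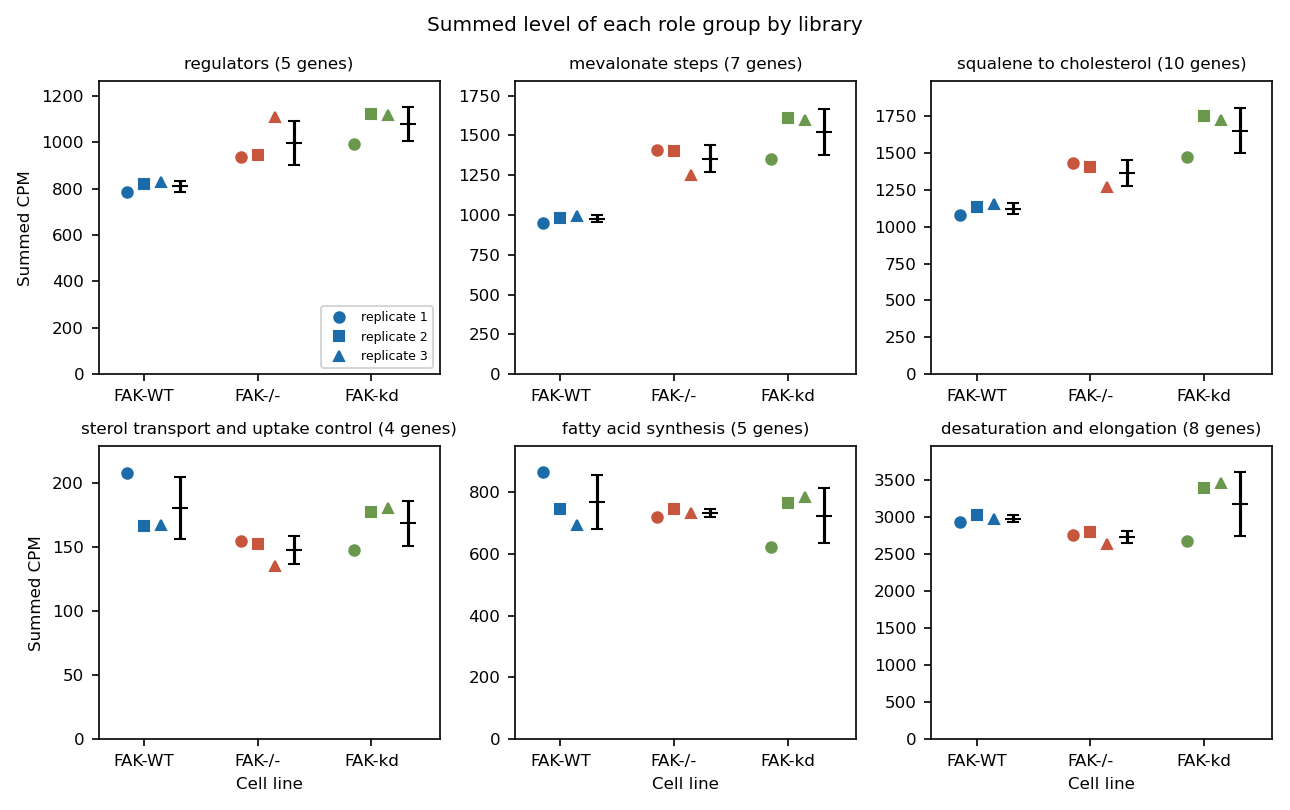
Summed CPM of each of the 6 role groups in each library, with the axis from 0, replicates as points and the mean with its SD (n = 3) in black. The mevalonate and squalene groups are lowest in FAK-WT cells, and the fatty acid synthesis group overlaps between all lines. FAK-kd replicate 1 is the lowest of its line in all 6.

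In sterol transport and uptake control the members differed in direction. Abca1, the transporter that passes cholesterol to apolipoprotein and a known target of the sterol-sensing LXR receptors, stood at 90.6, 73.5 and 73.4 CPM in FAK-WT, 50.5, 52.2 and 50.1 CPM in FAK-/- and 39.6, 57.5 and 61.1 CPM in FAK-kd. All FAK-WT libraries were above the other 6, with log2 fold changes of 0.58 ± 0.13 (SE, adjusted p = 0.00652) and 0.53 ± 0.13 (SE, adjusted p = 0.011). FAK-kd replicate 1 was the lowest value, and without it the difference from FAK-kd was 0.38 and still called.

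Mylip, a ubiquitin ligase that marks lipoprotein receptors for degradation and another known LXR target, stood at 26.4, 15 and 13.4 CPM in FAK-WT, 21.2, 18.9 and 22.6 CPM in FAK-/- and 20.3, 21.7 and 19.9 CPM in FAK-kd. It was called lower in FAK-WT cells (-0.48 ± 0.14 (SE, adjusted p = 0.028) and -0.46 ± 0.14 (SE, adjusted p = 0.0335)), although FAK-WT replicate 1, with 21 counts, was above all other libraries and the groups overlapped. The calls were lost under DESeq2, and the former also with only the 2 groups compared. They were also lost without FAK-WT replicate 2 or 3, and in the former comparison without FAK-/- replicate 1 or FAK-kd replicate 3, in the latter without any of the FAK-kd libraries. The values lay between -0.56 and -0.33 and between -0.54 and -0.31 with any 1 library left out. Stard4, a carrier of cholesterol in the cytosol, was the group's most abundant member at 90.6, 77.4 and 79.9 CPM in FAK-WT, 82.9, 81.2 and 62.5 CPM in FAK-/- and 87.7, 97.5 and 98.7 CPM in FAK-kd. It was not called, with 0.09 ± 0.10 (SE, adjusted p = 0.595) over FAK-/- and -0.23 ± 0.10 (SE, adjusted p = 0.152) over FAK-kd. Abcg1 had at most 0.118 CPM in any library.

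Fatty acid synthesis was not lower in FAK-WT cells as a group when all 9 libraries were fitted. Of its 5 genes, 1 was higher in FAK-WT than in the FAK-/- line, 2 were higher than in the FAK-kd line, and 0 were lower. Acaca, the acetyl-CoA carboxylase that makes malonyl-CoA, stood at 190.1, 172 and 162 CPM in FAK-WT, 139, 146 and 141 CPM in FAK-/- and 115, 132 and 142 CPM in FAK-kd. All FAK-WT libraries were above all others, by 0.27 ± 0.08 (SE, adjusted p = 0.0379) and 0.40 ± 0.08 (SE, adjusted p = 0.00326) on the log2 scale. The call against FAK-/- was lost without any of the 3 FAK-WT libraries, FAK-/- replicate 1 or FAK-kd replicate 2, with values between 0.23 and 0.32, and the one against FAK-kd was not. Acaca also shared 53.2% of its 31-base words with other transcripts, mostly of Gm5182, so that its reads could be split.

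Fasn, the fatty acid synthase, stood at 196, 120.3 and 106 CPM in FAK-WT, 85.6, 98.9 and 103 CPM in FAK-/- and 77.4, 91.2 and 96.2 CPM in FAK-kd. The highest value was that of the shallow FAK-WT replicate 1, although every FAK-WT library was above every other. Fasn was called against FAK-kd (0.54 ± 0.15 SE, adjusted p = 0.0219) and not against FAK-/- (0.43 ± 0.15 SE, adjusted p = 0.0698). Without FAK-WT replicate 1 these were 0.36 and 0.24, a change of over 1.5 times, with the call against FAK-kd kept, and without FAK-kd replicate 1 that call was lost at a value of 0.47. The difference from FAK-/- was called without FAK-WT replicate 3 or FAK-/- replicate 3.

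Acly, which supplies acetyl-CoA from citrate to both routes, was the most abundant gene of the group. It stood at 434, 405 and 376 CPM in FAK-WT, 446, 452 and 448 CPM in FAK-/- and 385, 477 and 484 CPM in FAK-kd. Neither difference was called, at log2 fold changes of -0.16 ± 0.09 (SE, adjusted p = 0.253) and -0.16 ± 0.09 (SE, adjusted p = 0.259). Acss2, which makes acetyl-CoA from acetate, was not called either. Without FAK-kd replicate 1, Acly and Acss2 were both called lower in FAK-WT than in FAK-kd cells, at -0.25 and -0.36. Acacb had at most 0.0798 CPM in any library.

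Among the 8 desaturases and elongases 0 were called between FAK-WT and FAK-/- cells, with a median log2 fold change of 0.09. In 4 of the 8 every FAK-WT library was above every FAK-/- library, and in 0 below. Among genes kept by the filter these shares were 18.4% and 24.1%. Elovl5 was called higher without FAK-/- replicate 1, and Fads2 without FAK-/- replicate 3 or FAK-kd replicate 1. At an unadjusted p below 0.05, edgeR gave 2 of the 8 as higher and 0 as lower, where 17.8% and 22.9% of the genes kept by the filter were, and DESeq2 called 0 of the 8 at an adjusted p of 0.05. Against FAK-kd cells Fads1, Fads2 and Elovl6 were higher.

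Fads1 and Fads2, the desaturases of polyunsaturated fatty acids, are neighbours on chromosome 19 (chr19:10182888-10196877 and chr19:10062765-10101746, GRCm38). Fads1 stood at 213, 224 and 221 CPM in FAK-WT, 208, 209 and 207 CPM in FAK-/- and 158, 185 and 185 CPM in FAK-kd, and Fads2 at 199, 166 and 168 CPM in FAK-WT, 145, 146 and 149 CPM in FAK-/- and 125, 146 and 153 CPM in FAK-kd. Both were higher in FAK-WT than in FAK-kd cells, by 0.32 ± 0.07 (SE, adjusted p = 0.00565) and 0.29 ± 0.09 (SE, adjusted p = 0.0265) on the log2 scale. In Fads1 the FAK-WT libraries were only slightly above the FAK-/- libraries (0.08 ± 0.07 SE, adjusted p = 0.493), so the FAK-kd line was the one that stood apart. The Fads1 value for FAK-kd over FAK-/- was -0.24 ± 0.07 (SE, adjusted p = 0.0521), just outside the threshold, and DESeq2 called it. The Fads2 call was lost without FAK-WT replicate 1 or 3 or FAK-kd replicate 1, with values between 0.23 and 0.37 for any 1 library left out.

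Elovl6, which lengthens palmitate, stood at 152, 151 and 149.8 CPM in FAK-WT, 145, 152 and 123 CPM in FAK-/- and 112, 125 and 130.4 CPM in FAK-kd. It was higher in FAK-WT than in FAK-kd cells (0.30 ± 0.09 SE, adjusted p = 0.0241), while FAK-WT over FAK-/- was 0.10 ± 0.09 (SE, adjusted p = 0.475). That call was lost without FAK-kd replicate 1, without FAK-kd replicate 2, and without FAK-WT replicate 2 or 3, with values between 0.25 and 0.36 for any 1 library left out.

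Scd1 and Scd2, the desaturases that make oleate and palmitoleate, lie close together on the same chromosome (chr19:44394455-44407879 and chr19:44293674-44306864). Scd2, second of the 39 per kilobase at 328 CPM, stood at 1692, 1841 and 1780.3 CPM in FAK-WT, 1624, 1641 and 1586 CPM in FAK-/- and 1629.9, 2134 and 2175 CPM in FAK-kd. Scd1 stood at 472, 476 and 477 CPM in FAK-WT, 467, 479 and 420.3 CPM in FAK-/- and 468, 629 and 635 CPM in FAK-kd. FAK-kd replicates 2 and 3 were high in both genes, and FAK-kd replicate 1 lay among the other lines. For FAK-WT over FAK-kd the values were -0.28 ± 0.10 (SE, adjusted p = 0.0676) in Scd1 and -0.16 ± 0.09 (SE, adjusted p = 0.272) in Scd2. Without FAK-kd replicate 1 both were called, at -0.40 and -0.27. For FAK-WT over FAK-/- the values were near 0, with 95% intervals of -0.13 to 0.26 in Scd1 and -0.04 to 0.31 in Scd2.

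FAK-kd over FAK-/- compares the kinase-deficient form with no FAK. The 4 genes called were Sqle (0.36 ± 0.06 SE, adjusted p = 0.00232), Cyp51 (0.34 ± 0.09 SE, adjusted p = 0.0364), Nsdhl (0.31 ± 0.08 SE, adjusted p = 0.0313) and Scd1 (0.34 ± 0.10 SE, adjusted p = 0.0438), all higher in FAK-kd cells. The 17 cholesterol synthesis genes had a median of 0.21, against 0.01 over all genes kept, and all of them but Dhcr7 had a value above 0. At an unadjusted p below 0.05 edgeR gave 16 of the 39 as higher and 3 as lower, where 14.7% and 14% of the genes kept by the filter were. DESeq2 called 5 higher and 1 lower, the latter being Fads1, where it called 3.71% and 3.7% of all genes. The Scd1 call was lost with DESeq2's size factors and with a minimum of 10 counts in every library, the Cyp51 and Scd1 calls with library size alone and with filterByExpr, and those of Cyp51, Nsdhl and Scd1 with only the 2 groups compared. This comparison depended most on which libraries entered. Without FAK-kd replicate 1, and likewise without FAK-/- replicate 3, 9 of the 39 were called higher, where 3.05% and 6.27% of all genes were. Without both of them and FAK-WT replicate 1, 24 were higher and 3 lower, against 12.4% and 10.9% of all genes. Without FAK-kd replicate 2 or 3, or FAK-WT replicate 2 or 3, 1 was higher, against 1.85% to 3.02% of all genes. Without FAK-/- replicate 2, 2 were higher, against 3.12%. Sqle was called in each of these. The Cyp51 and Nsdhl calls were lost without FAK-kd replicate 2 or 3 or FAK-WT replicate 2 or 3. The Nsdhl call was also lost without FAK-/- replicate 2. The Scd1 call, whose groups overlapped, remained only without FAK-/- replicate 3 or FAK-kd replicate 1. Their values lay between 0.23 and 0.40, between 0.24 and 0.38 and between 0.26 and 0.46, in that order, with any 1 library left out.

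Other genes of these pathways, 47 fixed by name and role, were examined in the same fit. In FAK-WT over FAK-/- 5 were higher and 8 lower, in FAK-WT over FAK-kd 4 were higher and 6 lower, and in FAK-kd over FAK-/- 2 were higher and 3 lower. These counts are near the shares of the genes kept by the filter given above, and the medians of the log2 fold change were -0.04, -0.04 and 0.05. By role, 3 of the 5 other sterol synthesis genes were lower in FAK-WT than in the FAK-/- line and 2 of 5 were lower than in the FAK-kd line, with 0 higher. Of the 11 genes of SREBP control outside the 39, 1 was lower in FAK-WT than in the FAK-/- line and 1 was higher than in the FAK-kd line. In FAK-kd over FAK-/-, 2 of these 11 and 1 of the 5 other sterol synthesis genes were lower, with 0 higher. The median of those 5 was 0.01, against 0.21 for the 17 cholesterol synthesis genes. The 2 higher genes were of fatty acid synthesis and use.

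Fabp5, a fatty acid binding protein of the epidermis, was the only gene of these 47 called past the log2 fold limit of 1, which it passed in FAK-WT over FAK-/-. It stood at 11.3, 18.5 and 17.3 CPM in FAK-WT, 38.0, 36.4 and 30.9 CPM in FAK-/- and 34.3, 29.8 and 29.0 CPM in FAK-kd. FAK-WT libraries were below all others, with -1.01 ± 0.13 (SE, adjusted p = 3.33e-05) over FAK-/- and -0.83 ± 0.13 (SE, adjusted p = 0.000195) over FAK-kd, and replicate 1 of FAK-WT had 9 counts.

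Levels between genes were compared per kilobase of the transcript with the longest coding part (GENCODE M21). Fdps and Scd2 were followed by Sqle at 126, Msmo1 at 113 and Scd1 at 104 CPM per kilobase, while Abca1 stood at 5.94 and Mylip at 6.51. Reads of a few genes could be shared with other transcripts. Of the 39, 28 shared under 1% of their 31-base words, and 5 shared over 10%. These were Fdps at 67.5% (mostly Gm43738), Acaca at 53.2%, Acat2 at 45.2% (mostly Acat3), Idi1 at 21.2% and Fdft1 at 16.5%. Their values are uncertain to that extent. Hmgcs1, Mvk, Mvd, Sqle, Msmo1 and Hsd17b7 shared under 1% and were called lower in FAK-WT in both comparisons. Of these, Mvk, Sqle and Hsd17b7 lost the call against FAK-/- when certain single libraries were left out, as given above, with the direction kept. The part of shared words in the values was not tested.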

How the data were processed

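RNA of the 3 SCC lines (3 libraries per line) was made into unstranded TruSeq libraries and sequenced as read pairs on an Illumina HiSeq. The authors pseudoaligned the reads with kallisto 0.43.1 and deposited estimated counts summed to genes and rounded to whole numbers, not scaled to library size. The submitters' processing notes name GRCm38 (mm10) and DESeq2, and the transcriptome release is not given in the sources used here. Libraries held 25304994 to 37264636 counts, and FAK-WT replicate 1 held 779755, so that 1 library limits the precision of low genes.

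From these counts 19044 genes were fitted with edgeR 4.0.16 in R 4.3.3 (TMM, quasi-likelihood test, cell line as the only factor, all 9 libraries, no filter), with Benjamini-Hochberg adjustment over all genes and a threshold of 0.05. The fold minimum was a log2 fold change of 1. SEs were derived from the log2 fold change and its F value, and 95% intervals follow from the SE by the normal distribution. CPM (counts scaled to a common library size) use TMM library sizes and are not divided by gene length. Scripts were tested on simulated data.

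Alternatives were DESeq2 1.42.0, other size factors, filters on low counts, fits of 2 groups, a replicate block, glmTreat and leaving out libraries. The members and the gene lists were chosen with earlier results of these data known. Members past the threshold and the most abundant member of each role group are given with every library's value, and other pathway genes only past the threshold and the fold minimum.

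Symbols, positions, lengths and 31-base words are from GENCODE M21 (GRCm38) and promoters from RefSeq (GRCm38.p6). Whether same-numbered libraries deviate together was checked over the genes kept by filterByExpr. Some genes of these pathways are not reported here.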

Additional observations from a re-analysis of the deposited data

How the results depend on the processing

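No gene called in a comparison changed its direction under any alternative. Genes that were not called could, such as Scap, Stard4 and Sc5d in FAK-WT over FAK-/- and Dhcr7 in FAK-WT over FAK-kd, with values near 0. Counts of the 39 genes called with FAK-WT stayed within 1.5 times the values above under DESeq2's size factors, library size alone, DESeq2, both filters on low counts and fits of the 2 groups compared. With the fold minimum and with glmTreat all 6 counts were 0. In FAK-kd over FAK-/-, 1 gene was lower under DESeq2's size factors, library size alone, DESeq2, filterByExpr and a minimum of 10 counts in every library, and the higher genes fell to 2 under library size alone and filterByExpr and to 1 with only the 2 groups compared. With libraries left out, the counts ranged from 2 to 6 higher and 8 to 20 lower in FAK-WT than in FAK-/-, from 3 to 7 higher and 14 to 25 lower in FAK-WT than in FAK-kd, and from 1 to 24 higher and 0 to 3 lower in FAK-kd than in FAK-/-. The largest of these counts, except the 7 and the 3, which leaving out FAK-/- replicate 3 alone also gave, were reached only without FAK-WT replicate 1, FAK-/- replicate 3 and FAK-kd replicate 1 together. The 8 lower genes were found without FAK-WT replicate 2, the 3 higher than FAK-kd without FAK-kd replicate 1, and 5 were higher than FAK-/- without FAK-/- replicate 3. With libraries left out, 4.54% to 16% of all genes were higher and 6.04% to 17.3% lower in FAK-WT than in FAK-/-. For FAK-WT over FAK-kd these shares were 4.49% to 17% and 6.44% to 19.2%. For FAK-kd over FAK-/- they were 1.85% to 12.4% and 1.89% to 10.9%. The cause of these changes was not tested beyond the libraries left out.

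Same-numbered libraries of different lines did not deviate together (mean correlation across genes -0.00768 over 9 pairs, against 0.00353 over 18 pairs with different numbers). The deviations were widest in the shallow FAK-WT replicate 1 (SD 0.91, against 0.49 in FAK-WT replicates 2 and 3). This check therefore cannot decide whether the numbers pair the samples. With a replicate block the counts were 2 higher and 12 lower in FAK-WT than in FAK-/-, 6 and 17 in FAK-WT than in FAK-kd, and 4 and 0 in FAK-kd than in FAK-/-. The calls lost with the block were those of Acaca and Mylip in the first comparison, Mylip in the second and Nsdhl in the third. FAK-WT replicate 1 limits what can be seen of low genes, since 3 counts there are worth 3.85 CPM.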
